A study of Mus musculus with 4 samples.

Results

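The 10 genes described here encode chaperones and co-chaperones of the heat shock response: Hspa1a, Hspa1b, Hspa8, Hsph1, Hspb1, Dnajb1, Hsp90aa1, Hspd1, Hspe1 and Bag3. They were taken by name from a deposited count table of 43346 genes, each name matched 1 row, and all 10 were among the 20872 genes that passed the filter on low counts. The RNA, polyadenylated and from lung epithelial cells of mice, was sequenced in 2 libraries from animals whose genotype is given as IL-33 over-expression (B and E) and 2 from control animals (D and F). IL-33 is an alarm cytokine that barrier cells set free when they are injured. The sources used here do not give strain, age, sex, the transgene promoter, how the cells were obtained or how many mice went into a library. The p-values below therefore measure the spread between these libraries, which may be technical in part.

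Heat shock proteins bind unfolded polypeptides and help them fold, move between compartments or be degraded. The genes of the inducible members are switched on by heat shock factor 1, which in stressed cells binds inverted repeats of a short GAA unit, the heat shock element, in their promoters. In lung, as in most tissues, the constitutive members are made at all times, while the inducible members rise on heat, oxidants and tissue handling. The products of Hspd1 and Hspe1 fold proteins in the mitochondrial matrix rather than in the cytosol, so the name cytosolic chaperones holds for 8 of the 10.

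Library totals ran from 76120696 to 87723745 counts. Levels across libraries are in CPM, the count scaled to a fixed library total. Il33 was 11.5-fold higher in the transgenic libraries, at 1723 and 874 CPM against 117 and 108 CPM, but missed the threshold of edgeR's test. The samples are labelled as epithelial cells and the series is titled as lung tissue, and markers of other cells were present. Those of endothelium, summed over 10 genes, ranged from 5265 to 9222 CPM. The sum of 12 epithelial markers, none of which was at 0, ranged from 32720 to 55965 CPM. Most of the epithelial sum was Sftpc, at 20036 to 36323 CPM, so the sums do not give the shares of the cell types. Summed over Eif2s3y, Kdm5d, Uty and Ddx3y, the Y-linked level stood at 0.554% (B), 9.0% (E) and 47.5% (F) of their level in D. Each of these genes was lower in B and E than in D and F, so the Y-linked level is confounded with genotype. Sex thus differed between B and D, while the intermediate values of E and F do not assign a sex to those libraries.

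The promoters of the pair Hspa1a and Hspa1b are shown because the genes are near-copies. The levels of the pair also moved together across libraries, but with so much shared sequence they may not be independent. The 150 bases before each start site are given 5′ to 3′ from RefSeq (GRCm38.p6, minus strand), for Hspa1a at chr17:34972157-34972306 and for Hspa1b at chr17:34959239-34959388. Capitals mark a match to the letters of a heat shock element of 2 inverted units.
Hspa1a: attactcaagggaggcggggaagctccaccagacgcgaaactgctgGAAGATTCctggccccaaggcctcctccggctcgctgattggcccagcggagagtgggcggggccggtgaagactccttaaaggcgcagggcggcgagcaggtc
Hspa1b: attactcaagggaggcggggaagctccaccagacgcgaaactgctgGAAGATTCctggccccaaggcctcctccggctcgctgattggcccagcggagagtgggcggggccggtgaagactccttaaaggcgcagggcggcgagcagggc

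These 2 stretches differ at 1 position, and over the full 250 bases before the start they differ at 3 (98.8% identity). The match begins 104 bases before the start site in each.

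Shorter stretches are shown for the members whose matches differ in number or arrangement, with the same marking. They lie at chr5:135887796-135887835 on the plus strand for Hspb1, chr5:149636351-149636380 on the minus strand for Hsph1 and chr1:55088053-55088082 on the plus strand for Hspe1. The Hsph1 stretch overlaps an exon of Hsph1, and the Hspe1 stretch lies in an exon of a Hspd1 transcript.
Hspb1: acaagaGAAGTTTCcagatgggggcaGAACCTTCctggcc
Hsph1: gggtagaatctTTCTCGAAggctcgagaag
Hspe1: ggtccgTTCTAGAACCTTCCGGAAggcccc

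Hspb1 held 2 separate matches. Hspd1 and Hspe1 are transcribed away from each other, and the same run of overlapping units lies in a window of each, beginning 89 bases before the start of Hspe1 and 144 bases before the second of the 2 RefSeq starts of Hspd1. The window of the other Hspd1 start held no match. The motifs searched were GAANNTTC and TTCNNGAA, each its own reverse complement, in the 250 bases before the start. At least 1 match was found in 6 of the 8 members with a promoter entry in any window, and in 14.5% of the 27025 genes with an entry (12.8% of all 32851 windows). A match extended by a further unit at the same spacing was found for 2 members, Hspd1 and Hspe1, and for 0.514% of genes (0.466% of windows). The windows of Dnajb1 and Bag3 held no match, and Hspa8 and Hsp90aa1 were not among the entries. A match describes the letters only.

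Several of these genes share sequence with other genes of the genome. The coding sequences of Hspa1a and Hspa1b match at 1889 of 1923 positions when laid side by side without gaps. In the GENCODE M21 transcripts, 66.3% of the 50-base windows of Hspa1a and 62.3% of those of Hspa1b also occur in a transcript of another gene. The share was 74.8% for Hspa8, 60.4% for Hspb1, 58.5% for Hsp90aa1, 44.8% for Hspe1 and 44.8% for Hspd1. It was 0.441% for Dnajb1 and 0 for Hsph1 and Bag3. The sources used here do not say how reads with several matches were counted, so levels of those 7 genes are uncertain, while Dnajb1, Hsph1 and Bag3 are nearly free of shared sequence. Hspd1 and Hspe1 overlap by 112 bases on opposite strands, and the predicted gene Gm20481 overlaps 2225 bases of Hspa1a on the opposite strand. On the same strand, Snord14c, Snord14d and Snord14e overlap 86, 86 and 90 bases of Hspa8.

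**Figure D1:**
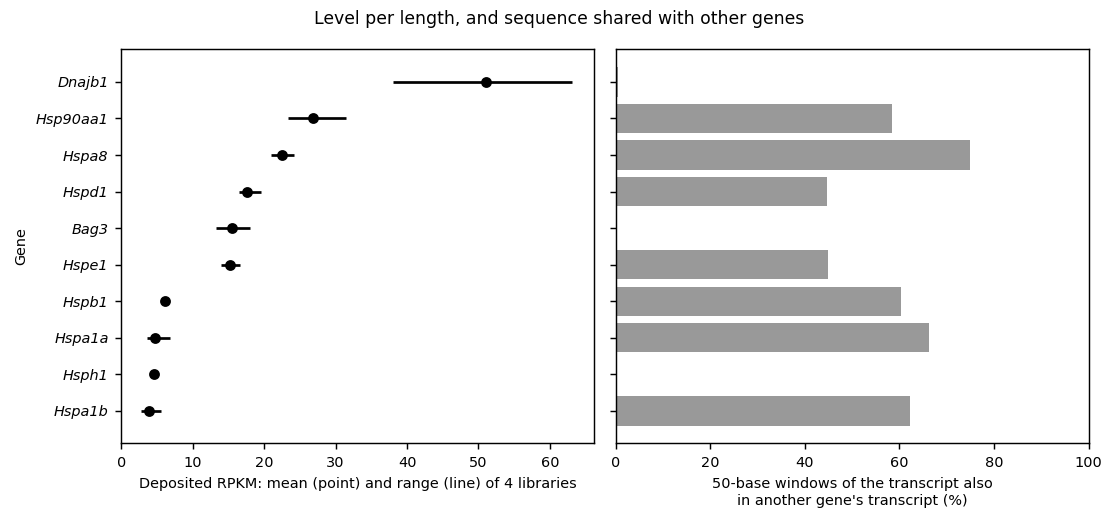
Left, deposited RPKM of the 10 chaperone genes, with points for the mean and lines for the range of 4 libraries, and right, the percentage of 50-base windows of each gene's transcript that also occur in a transcript of another gene. Dnajb1 is highest at a mean of 51.0 RPKM with 0.441% of its windows shared, and Hspa8 has the largest shared percentage at 74.8%.

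Per deposited gene length, Dnajb1 led and the inducible HSP70 genes were among the scarcest. These ranks rest on that length, which is 2263 bases for Dnajb1 and 4156 for Hspa8. Their transcripts used for the shared windows have 2996 and 2394 bases, and ranks by transcript length were not computed. The uncertainty from shared reads given above holds for these ranks too. By deposited RPKM (reads scaled by gene length and by library total), Dnajb1 was the most abundant at 38.0 to 63.1, above every library's value for Hsp90aa1 (23.3 to 31.4). Hsp90aa1 and Hspa8 (20.9 to 24.2) overlapped in range. Hspa8 did not overlap with Hspd1 (16.5 to 19.6). The ranges of Hspd1, Bag3 (13.2 to 18.0) and Hspe1 (14.0 to 16.7) ran into each other. The lowest were Hspb1 (5.59 to 6.49), Hspa1a (3.56 to 6.78), Hsph1 (4.20 to 4.89) and Hspa1b (2.77 to 5.51). In deposited RPKM, Hspb1 lay above every value of Hsph1 and Hspa1b, while the range of Hspa1a ran across all 3 of the others. The place of Hsph1 below Hspb1 rests on a deposited length of 7042 bases for Hsph1, whose transcript has 3802. Hsp90ab1, the constitutive partner of Hsp90aa1 and no member of this list, averaged 294 RPKM against 26.8 RPKM for Hsp90aa1. All 10 members together took 0.0653% (B), 0.0527% (E), 0.0586% (D) and 0.0619% (F) of the gene counts, with E the lowest library.

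None of the 10 genes passed the test between transgenic and control libraries. With edgeR's quasi-likelihood test (threshold 0.05 on the adjusted p), 0 members were higher and 0 were lower, beside 0.0% of all genes tested in each direction. At an unadjusted p under 0.05 there were 0 members and 269 genes. DESeq2 and limma-voom called 0 members as well, and over all genes they called 1 and 0. The log2 fold change was below 0 for 7 members and above 0 for 3, with a median of -0.07 beside -0.0013 over all genes tested. The median size of the difference regardless of sign was 0.13 for the members, 0.12 over all genes and 0.076 over the 10690 genes averaging at least 10 CPM, to which all members but Hspb1 belong. In 3 members (Hspa8, Hspb1 and Bag3) both transgenic libraries lay below both controls, where 12.0% of all genes tested did so. No member had both transgenic libraries above both controls, beside 11.9% of genes. Of 12 leukocyte markers 8 did, and all 12 had log2 fold changes above 0 (median 0.78), with 0 called by edgeR. Their summed levels, most of which is Lcp1, were 396 (B) and 457 CPM (E) beside 327 (D) and 364 CPM (F), and their part in the members' values was not tested. With 2 libraries against 2, an exact permutation test cannot go below a two-sided p of 0.333.

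**Figure D2:**
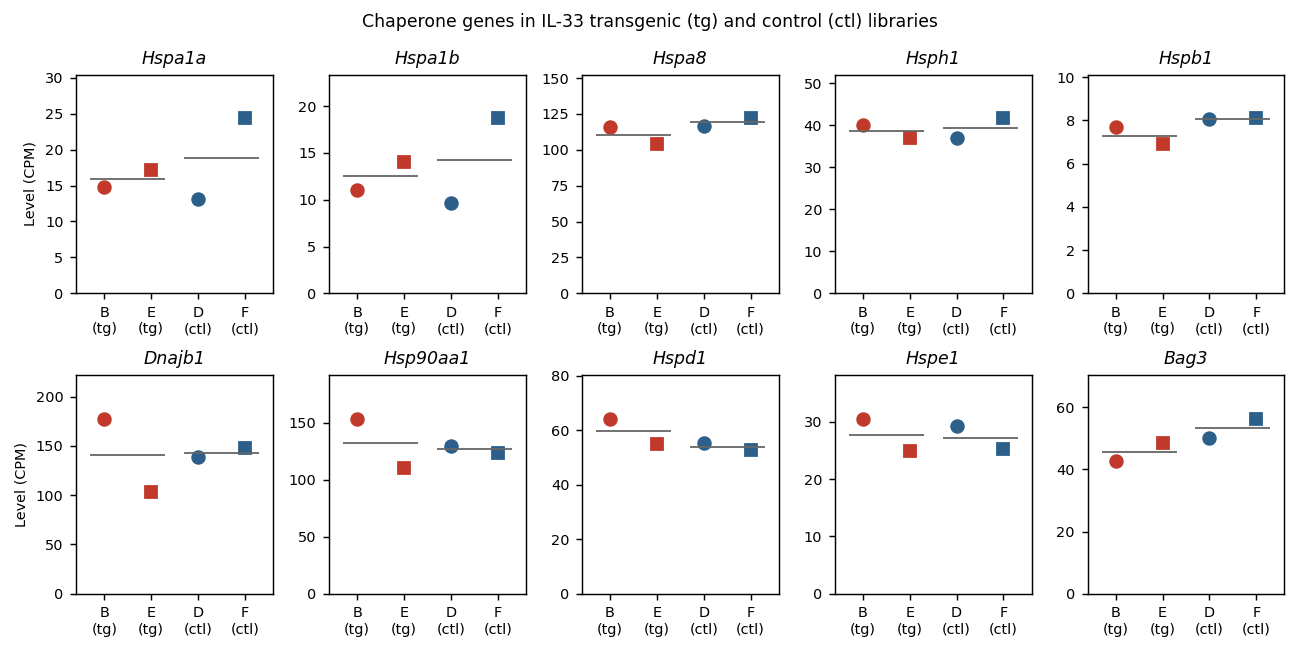
Level in CPM of each chaperone gene (vertical axes from 0) in transgenic libraries B and E (red) and control libraries D and F (blue), with circles for B and D, squares for E and F and grey lines at the group means. Library F is the highest for 6 genes and B for 4, and the groups are separate only for Hspa8, Hspb1 and Bag3.

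By the ratio of highest to lowest library, the inducible HSP70 genes Hspa1a and Hspa1b varied most of the members, and between libraries of the same genotype. Of genes with a similar mean CPM, 94.6% varied less than Hspa1a and 94.9% less than Hspa1b. For Dnajb1 that share was 95.3%. Hspa1a and Hspa1b encode nearly identical chaperones that are scarce in resting cells and strongly induced by stress. Hspa1a (ENSMUSG00000091971, chr17:34969190-34972156 in GRCm38) stood at 14.8 (B) and 17.2 CPM (E) beside 13.2 (D) and 24.3 CPM (F). The controls are thus the lowest and the highest library, with the transgenic libraries between them. Mean levels were 15.97 ± 1.69 CPM for transgenic and 18.8 ± 7.89 CPM for control animals' libraries (SD, n = 2 each). The log2 fold change was -0.23 (SE 0.30, 95% interval -1.02 to 0.55, adjusted p = 1 with edgeR).

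Hspa1b (ENSMUSG00000090877, chr17:34956436-34959238) stood at 11.01 (B), 14.0 (E), 9.70 (D) and 18.7 CPM (F). The order of the libraries was that of Hspa1a, and the log2 fold change was -0.18 (SE 0.34, 95% interval -1.05 to 0.68). The ratio of F to D, both controls, was 1.85 for Hspa1a and 1.93 for Hspa1b, while that of E to B, both transgenic, was 1.16 and 1.27. Counting error alone was 3.07% of the lowest count of Hspa1a and 3.58% of that of Hspa1b, which leaves out other error between libraries and the assignment of shared reads. The ratio of Hspa1a to Hspa1b in RPKM was 1.27 (B), 1.16 (E), 1.28 (D) and 1.23 (F). However, 58.8% of the 50-base windows of Hspa1a occur in Hspa1b, and 62.3% of those of Hspa1b in Hspa1a. How reads from them were counted is not given, so the 2 levels may not be independent. With the counts of the pair summed as 1 gene, the log2 fold change was -0.21.

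The direction for the pair rested on control library F. Without F the log2 fold change was 0.28 for Hspa1a and 0.37 for Hspa1b, and without D it was -0.61 and -0.58. With the Y-linked level, itself confounded with genotype, as a covariate it was -1.25 and -1.24, and still 0 members were called. Libraries E and F lay above B and D for 2 members, this pair, beside 27.3% of all genes tested. Of the endothelial markers 9 of 10 showed that order as well, with summed levels of 5265 (B), 6748 (D), 8385 (E) and 9222 CPM (F). So did 9 of 10 fibroblast and smooth muscle markers, at 1509, 2287, 3206 and 3744 CPM in the same order of libraries. The part of other cells in the levels of Hspa1a and Hspa1b was not tested. In bulk RNA, fewer cells of a type and less RNA per cell cannot be told apart.

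**Figure D3:**
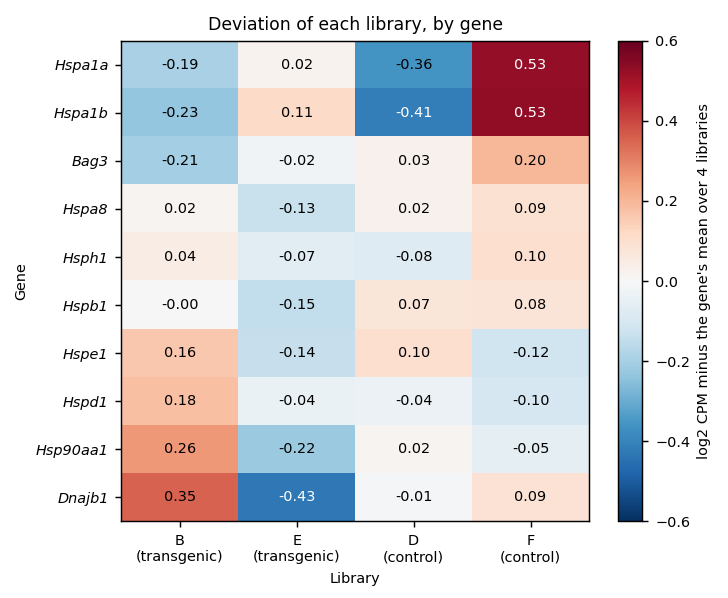
Deviation of each library (columns) from the gene's mean over 4 libraries, in log2 CPM, for each chaperone gene (rows), with red above and blue below the mean. Hspa1a and Hspa1b are high in control library F (0.53 each) and low in control library D (-0.36 and -0.41), while Dnajb1 is high in transgenic library B (0.35) and low in transgenic library E (-0.43).

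The constitutive HSP70 gene and the HSP110 gene varied about as much as other genes of at least 10 CPM: the highest library stood 1.17-fold above the lowest for Hspa8 and 1.13-fold for Hsph1, beside a median of 1.19 over those 10690 genes and 1.33 over all genes tested. Hspa8 (ENSMUSG00000015656, chr9:40800984-40805200), the main HSP70 of unstressed cells, stood at 115.7 (B) and 104 CPM (E) beside 116 (D) and 122 CPM (F). Both transgenic libraries were lower, but B lay within 1 CPM of D. The log2 fold change was -0.12 (SE 0.11, 95% interval -0.39 to 0.16). Hsph1 (ENSMUSG00000029657, chr5:149614287-149636376) encodes an HSP110 that helps HSP70 release its nucleotide, and none of its 50-base windows occurs in another gene. It stood at 40.1 (B), 37.1 (E), 36.9 (D) and 41.7 CPM (F), with a log2 fold change of -0.03 (SE 0.11, 95% interval -0.32 to 0.27). The groups overlapped.

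The co-chaperones of HSP70 differed in which libraries were high: B for Dnajb1 and F for Bag3. Dnajb1 (ENSMUSG00000005483, chr8:83608175-83611902) encodes the J-domain protein that delivers substrates to HSP70 and stimulates its ATPase. It stood at 177.7 (B) and 103 CPM (E), the highest and lowest values, beside 138 (D) and 148 CPM (F). Mean levels were 140.6 ± 52.5 CPM for the transgenic pair and 143.0 ± 6.72 CPM for the controls (SD, n = 2 each; log2 fold change -0.02, SE 0.26, 95% interval -0.70 to 0.65). Here the spread was within the transgenic pair, where B was 1.72-fold above E, whereas for Hspa1a and Hspa1b it was within the controls. Without B the log2 fold change was -0.47 and without E it was 0.30.

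Bag3 (ENSMUSG00000030847, chr7:128523583-128546977) encodes a nucleotide exchange factor that links HSP70 to small heat shock proteins and to autophagy. It stood at 42.6 (B) and 48.5 CPM (E) beside 50.02 (D) and 56.4 CPM (F). Both transgenic libraries were lower, and E was close to D. The means were 45.5 ± 4.16 and 53.2 ± 4.48 CPM (SD, n = 2 each), a log2 fold change of -0.22 (SE 0.12, 95% interval -0.54 to 0.09). Bag3 had the smallest p of the members, but it missed the threshold (adjusted p = 1 with edgeR, 0.799 with B and D set apart from E and F by a covariate). Without each library in turn its log2 fold change ran from -0.33 to -0.13. As the groups do not overlap, leaving out a library could hardly turn the direction, so this range is no further support.

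Hspb1 (ENSMUSG00000004951, chr5:135887919-135889563), the gene of a small heat shock protein that holds unfolding proteins for HSP70, was the least counted member at 580 to 690 reads. It stood at 7.68 (B) and 6.93 CPM (E) beside 8.08 (D) and 8.10 CPM (F). The gap between B and D, where the ratio was 0.9504, is close to the counting error of 4.15% in a single library. The log2 fold change was -0.15 (SE 0.15, 95% interval -0.53 to 0.24).

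Hsp90aa1 (ENSMUSG00000021270, chr12:110690605-110702728), the gene of the stress-inducible cytosolic HSP90, stood at 153.6 (B), 110.0 (E), 129.9 (D) and 123.6 CPM (F). As for Dnajb1, the transgenic libraries were the highest and the lowest (log2 fold change 0.06, SE 0.18, 95% interval -0.41 to 0.52). The direction turned without B (-0.20).

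The mitochondrial chaperonin genes were both highest in transgenic library B. Hspd1 (ENSMUSG00000025980, chr1:55077835-55088243) encodes HSP60, which forms the folding chamber, and Hspe1 (ENSMUSG00000073676, chr1:55088132-55091307) encodes HSP10, its lid. Hspd1 stood at 64.3 (B), 55.1 (E), 55.3 (D) and 52.8 CPM (F), with B alone standing out (log2 fold change 0.14, SE 0.12, 95% interval -0.16 to 0.44). Hspe1 stood at 30.6 (B), 24.8 (E), 29.3 (D) and 25.2 CPM (F), with no order by genotype (log2 fold change 0.02, SE 0.15, 95% interval -0.36 to 0.41). In RPKM, Hspd1 over Hspe1 was 1.17 (B), 1.24 (E), 1.05 (D) and 1.17 (F).

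Libraries E and F lay below B and D for 3 members, Hsp90aa1, Hspd1 and Hspe1, beside 26.7% of all genes tested. The same order was shown by 11 of 12 epithelial markers, with summed levels of 55965 (B), 46715 (D), 35201 (E) and 32720 CPM (F), and the part of the epithelial share in these values was not tested.

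**Figure D4:**
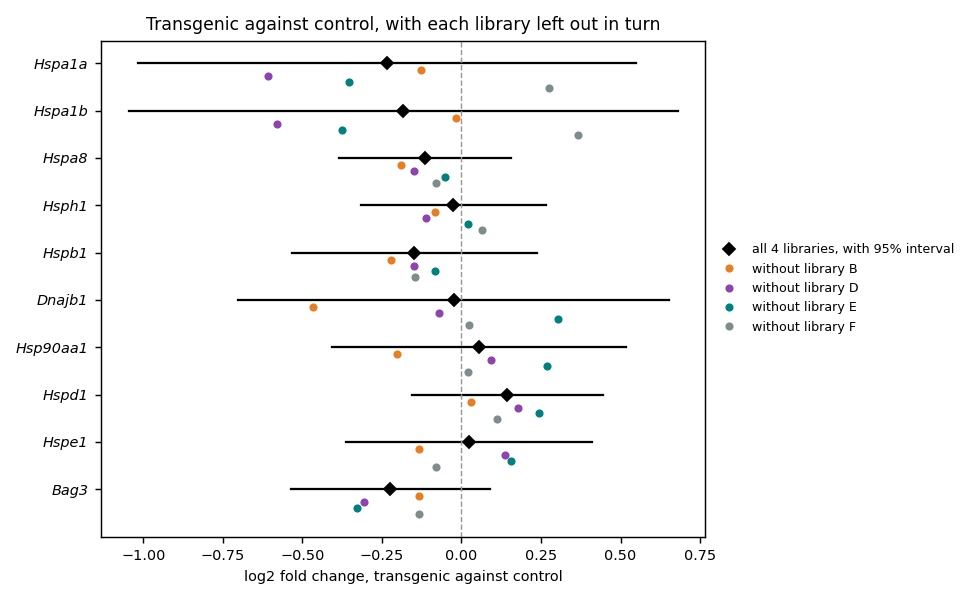
Log2 fold change of transgenic against control libraries for each chaperone gene from edgeR's quasi-likelihood fit (black diamonds, lines for the 95% interval), with coloured points for the value without each library in turn. Every interval includes 0, and for 6 of the 10 genes the direction turned when a library was left out.

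Other genes of the chaperone network did not pass the test either: in each list that follows 0 genes were called higher and 0 lower with edgeR. Of 8 other HSP70 and HSP110 genes, 6 had values above 0 (median 0.05). The highest per length was Hspa4, an HSP110 (24.9 RPKM, log2 fold change 0.04, SE 0.11), and the smallest p belonged to Hspa14 (-0.10, SE 0.09) and Hspa12b (-0.19, SE 0.22). Of 10 other J-domain genes, 5 lay above 0 (median -0.02), with Dnajb6 at -0.14 (SE 0.10), Dnaja1 at -0.11 (SE 0.11) and Dnaja2 the highest per length (38.6 RPKM). Of 8 further BAG proteins and HSP70 partners, 5 lay above 0 (median 0.02). Among these Bag5 (0.21, SE 0.14) and Bag4 (0.11, SE 0.11) had both transgenic libraries above the controls, beside 11.9% of all genes. Bag6 had them below (log2 fold change -0.11, SE 0.11), as did Bag3, beside 12.0% of genes, and it is named here after its values were seen. Bag1 was the highest of the list per length (63.3 RPKM).

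HSP90 and its co-chaperones had 7 of 12 values above 0 (median 0.01). Ppid, a cyclophilin bound to HSP90, had a log2 fold change of 0.11 (SE 0.11) and the myosin chaperone gene Unc45a one of -0.08 (SE 0.09). Hsp90ab1 stood at 1062 (B) and 1047 CPM (E) beside 1078 (D) and 1129 CPM (F), a log2 fold change of -0.06 (SE 0.15). The 8 subunits of the cytosolic chaperonin TRiC had 5 values above 0 (median 0.01), all between -0.02 and 0.06, with Cct2 the highest per length at 77.7 RPKM. Cct6a and Tcp1 stood at 0.06 each (SE 0.10 and 0.13). All 8 TRiC genes, 6 of 8 other mitochondrial chaperone and protease genes and 7 of the 12 HSP90 list genes were lower in E and F than in B and D, as were Hsp90aa1, Hspd1 and Hspe1, and as were 26.7% of all genes.

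Of the other mitochondrial genes, 6 of 8 lay above 0 (median 0.04). Hspa9, the mitochondrial HSP70, averaged 31.4 RPKM with a log2 fold change of 0.09 (SE 0.12). Its nucleotide exchange factor gene Grpel2 stood at 0.20 (SE 0.17) and the protease gene Clpp at -0.18 (SE 0.13). Among the heat shock factors, Hsf1 stood at 32.0 (B) and 30.0 CPM (E) beside 32.2 (D) and 32.7 CPM (F) (log2 fold change -0.07, SE 0.10), Hsf4 at 0.23 (SE 0.23), and of 4 regulators tested 2 lay above 0 (median 0.01). Hsbp1, which encodes a binding protein of the factor, was the highest per length (60.6 RPKM).

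The other small heat shock proteins were the list with the lowest median, at -0.20 with 1 of 7 values above 0. Its smallest p belonged to the scarce Hspb9, at 0.146 (B) and 0.113 CPM (E) beside 0.397 (D) and 0.481 CPM (F) (log2 fold change -1.76, SE 0.41), followed by Hspb2 (-0.21, SE 0.18). Both genes were lower in both transgenic libraries, as were 12.0% of all genes tested. They are named for their small p, so this order is no further support. Cryab, the αB-crystallin gene and the highest of this list at 29.3 RPKM, stood at -0.08 (SE 0.25), with 46.8 (B), 36.3 (E), 53.4 (D) and 34.5 CPM (F). Of 10 other textbook targets of heat shock factor 1, of which Tcp1, Dnaja1, Cryab and Hspa4l stand in another list too, 4 lay above 0 (median -0.06). In 3 of these targets both transgenic libraries lay below both controls, beside 12.0% of all genes tested. Among them was the polyubiquitin gene Ubb, named for its small p (log2 fold change -0.74, SE 0.26). Ubb stood at 19.8 (B) and 32.7 CPM (E) beside 40.4 (D) and 47.1 CPM (F). The collagen chaperone gene Serpinh1, the highest of the list at 185 RPKM, stood at -0.19 (SE 0.14) and the hydroxylase gene Jmjd6 at -0.18 (SE 0.12).

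**Figure D5:**
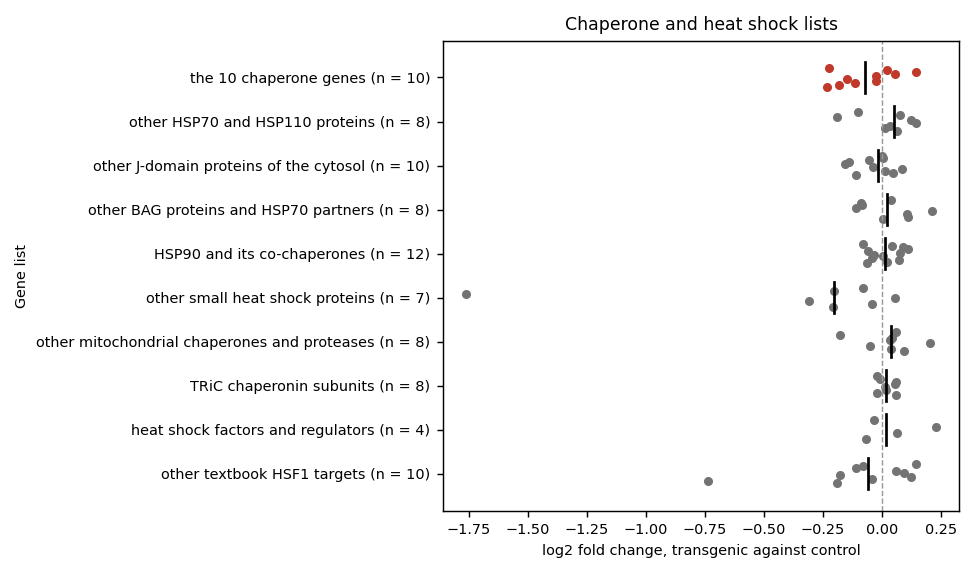
Log2 fold change of transgenic against control for the 10 chaperone genes (red) and for related lists (grey), 1 point per gene tested, with black bars at list medians. Medians lie between -0.20 (other small heat shock proteins) and 0.05 (other HSP70 and HSP110 genes), and the lone point near -1.76 is Hspb9.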

How the data were processed

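Per the submitters' processing notes, TopHat2 (version 2), Bowtie (version 1) and featureCounts (version 1) were used with the builds mm10 and GRCm38. The sources used here give neither the annotation release nor the strand setting. The authors deposited raw counts per gene with RPKM values beside them, per the file headers. RPKM served to compare genes, counts for all else. The members and lists were chosen with earlier results of these data known.

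Genes were filtered with filterByExpr (minimum count 10, total 15; 20872 kept) and scaled by TMM. Transgenic and control libraries were compared by edgeR (version 4.0.16 under R 4.3.3, quasi-likelihood) without covariate, 2 per group, with Benjamini-Hochberg adjustment over all genes tested. CPM uses the scaled library sizes. Intervals cover 95% and derive from the same fit. The fit was tested on simulated data. Alternatives were DESeq2 size factors, no filter or 1 CPM in 2 libraries, DESeq2 1.42.0, limma-voom (limma 3.58.1), each library left out, a covariate that sets B and D apart from E and F (a split known from earlier results), the summed Y-linked level as covariate, Hspa1a plus Hspa1b summed, and CPM per kilobase for RPKM, which rests on the same counts and lengths and so is no independent check. In each list the genes named are the pair with the smallest p and the highest by RPKM. Also named are Il33, as the check of genotype, and the 5 genes nearest to the members' mean profile. Promoters are RefSeq entries (GRCm38.p6), and shared windows come from GENCODE M21 transcripts.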

Additional observations from a re-analysis of the deposited data

How the results depend on the processing

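No member was called under any alternative run: the count of members called was 0 in each. The smallest adjusted p of a member was 0.457 (Bag3, without library E). Over all genes DESeq2 called 1 gene higher. Without B, D, E and F edgeR called 2, 0, 3 and 5 genes higher, and over these 0 to 12 lower; the lone library of a group is then assumed to vary like the other group. Of 112 member values under alternatives, 103 kept their direction and 9 turned, all of them with a library left out. The other alternatives reuse the same 4 libraries, so they are a weak check of direction. Without a library the direction turned for 6 of the 10 members. Without F the log2 fold change was 0.28 for Hspa1a, 0.37 for Hspa1b, 0.064 for Hsph1, 0.024 for Dnajb1 and -0.081 for Hspe1. Without E it was 0.021 for Hsph1 and 0.30 for Dnajb1, and without B it was -0.20 for Hsp90aa1 and -0.13 for Hspe1. The cause was not tested. Hspa8, Hspb1, Hspd1 and Bag3 kept their direction throughout. For Hspa8, Hspb1 and Bag3 this follows from groups that do not overlap, where leaving out a library could hardly turn the direction. Without F the members' median was 0.02, with 4 members below 0. No paired analysis was possible because the labels number no replicates and pair no libraries; the covariate for B and D against the other libraries is a split seen in the data. The depth of these libraries leaves counting errors of 1.01% to 4.15% for the members.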

Other observations

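The immediate-early genes, which tissue handling also induces, were abundant beside the 10 chaperone genes. Fos, the highest of those listed, averaged 777 RPKM and Nr4a1, the lowest, 106 RPKM. The highest chaperone gene, Dnajb1, averaged 51.0 RPKM, and Hspa1a 4.79 RPKM. The summed level of 12 such genes was 11568 (B), 9539 (E), 11012 (D) and 11750 CPM (F). The summed level of the 10 chaperone genes was 658 (B), 521 (E), 587 (D) and 620.5 CPM (F), so library E was the lowest for each sum. Of the 12, 11 had log2 fold changes below 0 (median -0.14), and 5 had both transgenic libraries below the controls, beside 12.0% of all genes tested. With edgeR 0 were called higher or lower, and 1 had an unadjusted value under 0.05, Nr4a1 (log2 fold change -0.47, SE 0.13); Ier3 followed at -0.27 (SE 0.14). The relation of the sums was not tested.

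The 10 chaperone genes differed among themselves in profile over the 4 libraries. By Euclidean distance between a gene's centred log2 CPM and the members' mean, Hsph1 was the nearest member (0.0523), and Hspa1a (0.557) and Hspa1b (0.634) were the farthest. The other genes searched were 10140 averaging at least 10 CPM, predicted gene models and pseudogenes left out by name. Nearest of these were Cul9 (0.0334), Ccdc137 (0.0411), Rab28 (0.0427), Bok (0.0439) and Ddit4 (0.0536). The members' mean lay between -0.106 (E) and 0.134 (F) and averages unlike profiles. Any such mean has nearest genes, so their nearness is a description and was not tested.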
